A study of Mus musculus with 1699 samples.

Results

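Genes for sodium, calcium and HCN channel subunits were followed through single neurons of the developing mouse ventral midbrain.
The members were all protein-coding genes whose symbol, read from the Ensembl identifier, begins with Cacn or Hcn or is Scn followed by a digit. They were 44 of 39468 gene entries, and 21682 of those entries were protein-coding. Values are given for 41 of them, and every count of members below is over these 41.

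The cells came from mice whose Pitx3 locus carries the eGFP coding sequence, were sorted by fluorescence and were sequenced 1 library per cell with Smart-seq2. Cells heterozygous for the allele (Pitx3eGFP/wt) covered embryonic days E13.5, E15.5 and E18.5 and postnatal days P1, P7 and P90. Cells homozygous for it (Pitx3eGFP/eGFP), in which both Pitx3 alleles carry it, covered E13.5 and P1. All groups carry at least 1 eGFP allele and no group without it was analysed here. Per the labels, ERCC spike-in RNA was added at E18.5, at P90 and in all homozygous cells, in no heterozygous cell at E13.5, E15.5 or P7, and in 96 heterozygous cells at P1 but not in the rest. Embryonic, early postnatal and P90 tissue was dissociated with different enzyme kits, so dissociation and age cannot be told apart.

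Of 1699 deposited cells, 1464 were kept. They were 1128 heterozygous cells, with 84 at P7, the stage with the fewest, and at least 140 at each of the other stages, and 336 homozygous cells. Median reads assigned to genes per cell ran from 749734 to 2357898 over these 8 groups. No pair of cells held identical values. At least 6 of 7 neuronal markers were over an RPKM of 10 in most cells of every heterozygous stage. Pitx3 itself had mean RPKMs of 416 and 18.9 in heterozygous and homozygous cells at E13.5. In the spike-in cells of the 2 genotypes at P1 they were 116.9 and 8.34. Pitx3 was over 10 in 61.8% and 31.01% of homozygous cells at E13.5 and P1. The paper treats homozygous cells as Pitx3 knockout cells, and whether these reads come from an intact transcript was not tested. Cells with at least 3 of 12 oligodendrocyte-lineage markers over 10 were left out; they numbered 95 at P7, where 84 cells remained, and from 0 to 51 at the other heterozygous stages.

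The labels name no animal for any cell, so the cells of a stage and genotype were treated as 1 sample and no test across samples was possible. Levels are means of RPKM, the reads of a gene scaled by the length of its transcripts and by the reads assigned in the cell. A share is the percentage of cells with an RPKM over 10, with an exact Clopper-Pearson 95% interval, and a difference between shares is given in percentage points with Newcombe's 95% interval. Where no cell was over 10, the share that is still allowed is given as 3 cells of the total, a limit below the exact upper bound. These intervals and limits cover counting error only. A gene is called 2-fold higher or lower where log2 of the ratio of the means, each with 1 added, was at least 1 or at most -1, counting only entries whose mean reached 1 in at least 1 of the groups compared.

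Voltage-gated sodium channels open on depolarisation and carry the upstroke of the action potential. Calcium channels of the L, Cav2 and T types admit the calcium that drives transmitter release, gene regulation and rhythmic firing, and HCN channels open on hyperpolarisation and carry a pacemaker current. Adult midbrain dopamine neurons are known for firing regularly without synaptic input, a behaviour to which channels of all 3 families have been linked. A pore-forming alpha subunit of a sodium channel pairs with beta subunits, which set its gating and surface level, and a calcium channel pore pairs with an intracellular beta subunit and an alpha2delta subunit. Most Cacng genes are named for similarity to a calcium channel subunit and encode proteins that escort AMPA-type glutamate receptors.

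Of the 30 channel genes that reached the minimum mean at E13.5 or P90, 9 were at least 2-fold higher at P90 and 8 were at least 2-fold lower. Over all entries tested, 20.9% were higher by the same rule and 19.9% were lower, and the median log2 ratio was 0.25 over the members and -0.07 over all entries. By subfamily, higher and lower calls numbered 3 and 1 of 6 sodium alpha genes, 1 and 1 of 2 sodium beta genes, 2 and 2 of 4 calcium beta genes, 1 and 0 of 3 Cav2 genes, 1 and 1 of 3 T-type genes, 0 and 1 of 3 alpha2delta genes, 0 and 1 of 5 gamma genes and 1 and 1 of 3 HCN genes. The 1 L-type gene tested was not called. Taken as the mean of log2 values, 10 genes were higher and 5 lower. The share of all entries called by that measure is not given, so these counts describe the channel genes alone. Scn7a, Scn3b, Cacna1h, Cacna1i and Hcn4 were no longer called, and Scn9a (1.12), Cacna2d1 (1.18) and Cacng3 (2.33) were called higher.

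**Figure D1:**
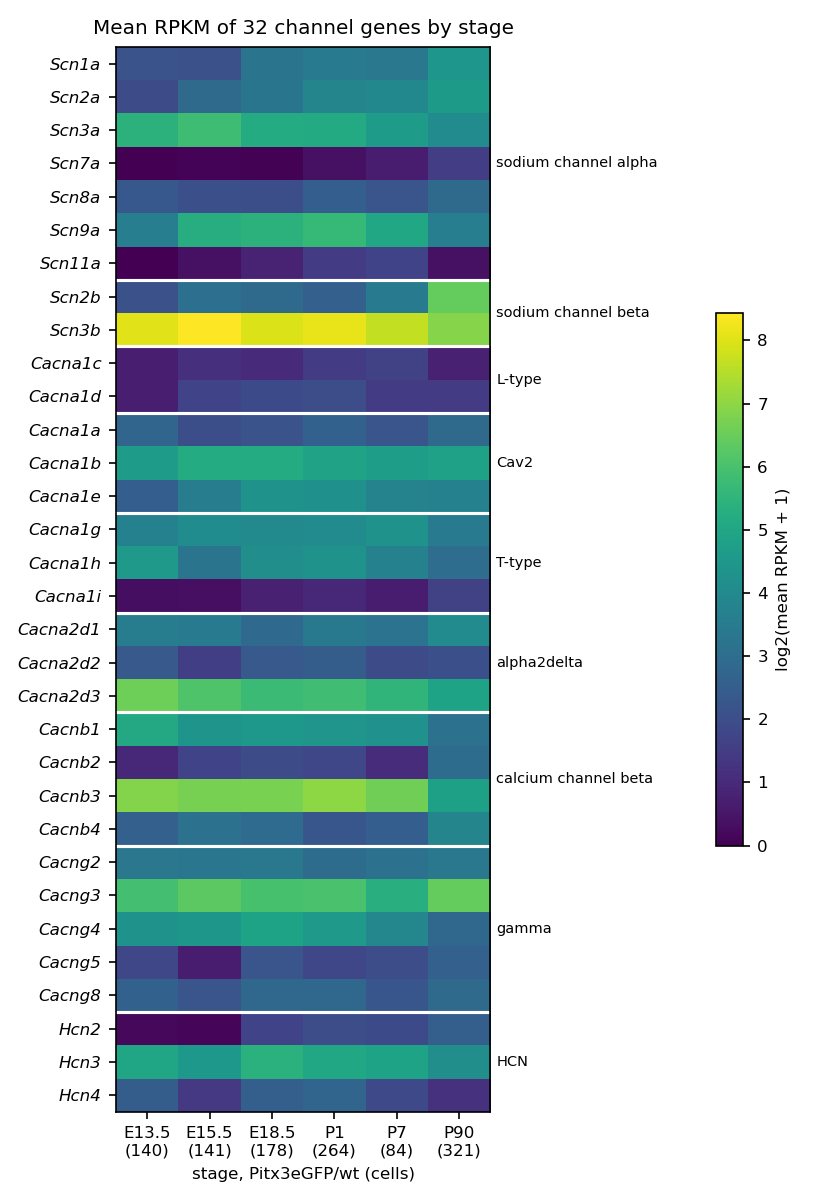
Mean RPKM on a log2 scale, with 1 added, of the 32 channel genes whose highest stage mean was at least 1 (rows, grouped by subfamily) at the 6 heterozygous stages (columns, with the number of cells). Scn2b is low from E13.5 to P7 and high at P90, whereas Scn3b and Cacnb3 are high from E13.5 on and lower at P90.

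Promoters of 4 of these genes are shown because they are the promoters of 2 genes that were higher and 2 that were lower at P90. They are RefSeq sequences of GRCm38.p6, from 250 bases before to 50 bases from the start of transcription on, printed 5′ to 3′ on the strand of the gene. Capitals mark GC boxes, GGGCGG on either strand.
Scn2b, chr9:45117626-45117925 (+): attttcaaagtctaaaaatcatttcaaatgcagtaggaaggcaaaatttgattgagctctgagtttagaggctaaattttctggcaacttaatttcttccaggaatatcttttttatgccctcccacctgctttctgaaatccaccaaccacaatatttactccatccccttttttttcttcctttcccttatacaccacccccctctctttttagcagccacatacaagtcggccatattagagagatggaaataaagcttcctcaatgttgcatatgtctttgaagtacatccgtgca
Scn2a, chr2:65620519-65620818 (+): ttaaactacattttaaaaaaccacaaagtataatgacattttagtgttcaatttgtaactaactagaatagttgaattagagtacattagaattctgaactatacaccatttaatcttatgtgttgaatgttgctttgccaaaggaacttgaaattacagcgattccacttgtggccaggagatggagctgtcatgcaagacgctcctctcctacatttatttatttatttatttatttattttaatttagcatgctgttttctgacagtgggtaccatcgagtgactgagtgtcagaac
Cacnb3, chr15:98632078-98632377 (+): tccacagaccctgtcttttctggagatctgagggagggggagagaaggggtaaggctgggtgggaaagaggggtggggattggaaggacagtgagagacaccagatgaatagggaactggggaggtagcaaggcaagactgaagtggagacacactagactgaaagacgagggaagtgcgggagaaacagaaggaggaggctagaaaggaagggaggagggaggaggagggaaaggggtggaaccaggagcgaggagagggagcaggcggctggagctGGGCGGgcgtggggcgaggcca
Cacnb1, chr11:98022578-98022877 (-): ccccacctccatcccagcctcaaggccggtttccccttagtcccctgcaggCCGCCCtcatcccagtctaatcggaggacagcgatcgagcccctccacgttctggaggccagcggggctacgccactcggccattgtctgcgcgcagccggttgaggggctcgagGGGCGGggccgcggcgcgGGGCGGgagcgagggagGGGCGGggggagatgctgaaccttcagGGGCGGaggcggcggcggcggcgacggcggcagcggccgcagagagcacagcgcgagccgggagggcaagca

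The Scn2b and Scn2a windows hold 38.3% and 33% G and C and no GC box, and those of Cacnb3 and Cacnb1 hold 59.7% and 73.7% with 1 and 5 GC boxes. RefSeq lists more than 1 promoter for Scn2a, Cacnb3 and Cacnb1, and the one shown for Cacnb3 lies 1488 bases from the start of the annotated gene. Of the windows counted below, that of Cacna1e lies 158581 bases from the start of its annotated gene. Promoters were found for 32 of the 41 members, and their median G and C content was 61.5% against 52.7% over all promoters in the table. A GC box was present in 15 of the 32 (46.9%) and in 35.7% of all promoters. Of the genes higher at P90, 9 of 9 had a promoter in the table, with 33 to 78.3% G and C (median 55.3%) and a GC box in 4; of those lower at P90, 4 of 8 did, with 59.7 to 81.3% (median 72.7%) and a GC box in 4. The motif TATAAA, also searched on both strands, was present in 1 of the 32 windows (3.12%) and in 13.6% of all promoters. A cyclic AMP response element, TGACGTCA, was present in 0 of the 32 windows and in 1.79% of all promoters. TAATCC, the core bound by Pitx factors, was present in 3 of the 32 (9.38%) and in 7.06% of all promoters. These matches describe the letters of 300-base windows, and 4 of the 8 genes lower at P90 had no window.

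A run of sodium alpha genes that ends with Scn7a lies on chromosome 2 (GRCm38), with Scn3a at 65457118-65567627, Scn2a at 65620771-65767447, Scn1a at 66270778-66440840 and Scn9a at 66480080-66634962. Their levels followed different courses with age. Scn1a, which encodes a pore of fast-spiking adult neurons, had an RPKM from 0 to 67.1 over cells at E13.5, with a median of 0 and a mean of 3.44. At P90 it ran from 0 to 124.2 with a median of 14.03 and a mean of 20.4. The cells overlapped, but the share over 10 was 11.4% at E13.5 and 60.4% (54.9 to 65.8) at P90, a difference of 49.01 points (40.7 to 55.7) and a log2 ratio of 2.27.

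Scn2a, the pore of the axon initial segment and of immature axons, ran from 0 to 42.7 at E13.5 (median 0, mean 2.82) and from 0 to 213.7 at P90 (median 16.3, mean 22.9). Its share was 11.4% at E13.5 and 65.7% (60.3 to 70.9) at P90, higher by 54.3 points (46.01 to 60.9), with a log2 ratio of 2.64. Its means at the stages between were 6.60, 8.75, 13.2 and 14.2, so each sampled age had a higher mean than the one before it. The step from P1 to P7 had a log2 ratio of 0.10, but of -0.07 from summed counts and -0.26 from the mean of log2 values. Scn7a, an atypical member that acts in sodium sensing, had no cell over 10 at E13.5, which allows a share of up to 2.14%. It had 6.54% at P90, where the highest cell reached 45.2.

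Scn3a, known as the sodium channel of the embryonic brain, went the other way. It ran from 0 to 284.9 at E13.5 (median 28.02, mean 41.9) and from 0 to 143.2 at P90 (median 10.5, mean 15.96), and its share was 75% and 51.7%, a difference of -23.3 points (-31.7 to -13.8). Its log2 ratio was -1.34, and -0.85 from summed counts, which is not a 2-fold change. Scn9a, a pore best known from pain-sensing neurons, had means of 11.3, 37.4, 41.6, 48.6, 32.05 and 11.2 from E13.5 to P90. Its share was 18.6% at E13.5, 67.4% at E18.5 and 33.3% at P90, so it was higher at the middle stages and similar in mean at both ends. Scn8a, the pore that supports repetitive firing, kept a mean between 3.06 and 6.50 at all 6 stages, and Scn11a stayed at or below 2.25.

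**Figure D2:**
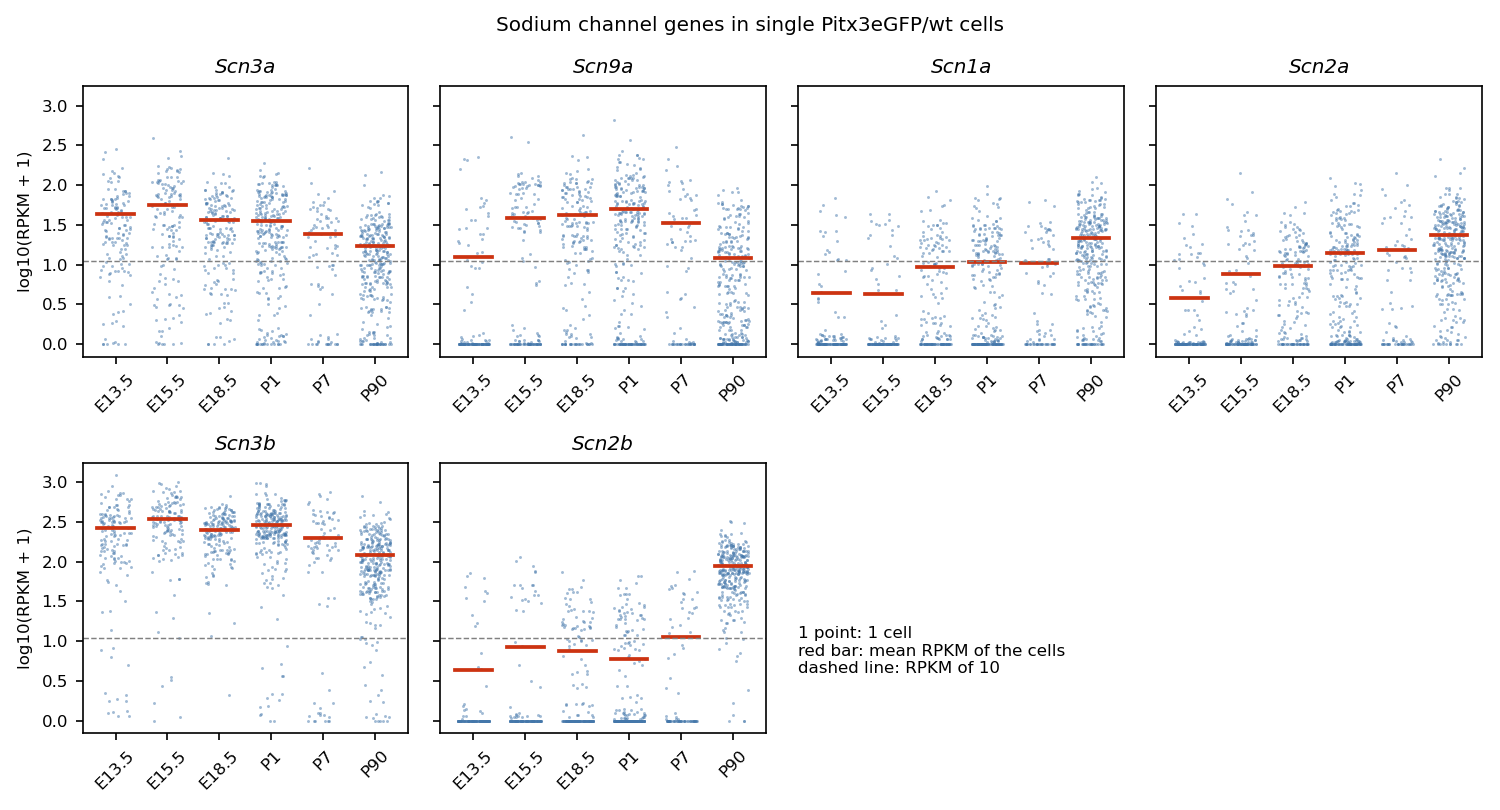
RPKM of 6 sodium channel genes in each heterozygous cell by stage, on a log10 scale with 1 added (1 point a cell, the red bar is the mean RPKM, the dashed line is an RPKM of 10). Scn2b has at most 28.6% of cells over the line before P90, when 96.0% are over it, and Scn3b is over it in at least 79.8% of cells at every stage.

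The gene with the highest RPKM among the sodium alpha genes of a cell, counted where it exceeded 10, also differed by age. At E13.5 it was Scn3a in 65% (56.5 to 72.9) of cells and Scn9a in 6.43%. At E18.5 Scn3a led in 44.4% and Scn9a in 40.4%, and at P1 they led in 35.98% and 39.4%. At P90 Scn1a led in 29.9% (24.9 to 35.2), Scn2a in 28.97% (24.1 to 34.3), Scn3a in 20.2% and Scn9a in 13.7%, and the intervals of Scn1a and Scn2a overlapped. With every cell thinned to 100000 reads, Scn3a led in 63.6% at E13.5 and in 19.6% at P90. These shares are over all cells of a stage, and at P90 these genes differed between the cell classes given below.

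Scn2b (chromosome 9, 45117782-45130070) encodes an auxiliary subunit with an immunoglobulin-like domain outside the cell. It ran from 0 to 70.7 at E13.5 (median 0, mean 3.28, share 7.86%) and had means of 7.40, 6.46, 4.96 and 10.1 from E15.5 to P7. At P90 it ran from 0 to 319.2 with a median of 76.7 and a mean of 86.2, and 96.0% (93.2 to 97.8) of cells were over 10. The share was higher by 88.1 points (81.8 to 91.9) and the log2 ratio was 4.35. From P7 to P90 alone the log2 ratio was 2.97. Over the 4 sets into which the sample titles number the P90 cells, the mean ran from 62.9 to 108.1, each of them above the mean of every earlier stage.

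Scn3b (chromosome 9, 40269217-40291618), a beta subunit abundant in the embryonic brain, had the highest mean of the 41 genes at every heterozygous stage. It ran from 0.139 to 1233 at E13.5 (median 224.2, mean 262.2) and from 0 to 659 at P90 (median 98.1, mean 118.5). Its share was 90.0% and 92.5%, a difference of 2.52 points whose interval (-2.69 to 9.07) includes 0. The log2 ratio was -1.14, so the level was lower while the share over 10 was not. Of Scn2b, Scn3b and Scn4b, Scn3b had the highest RPKM, over 10, in 90.0% of cells at E13.5 and 99.4% at E18.5. At P90 it did in 58.9% (53.3 to 64.3) and Scn2b in 40.8% (35.4 to 46.4). Scn4b, a further beta subunit, had a highest stage mean of 0.171 and was over 10 in at most 0.379% of cells of a stage.

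**Figure D3:**
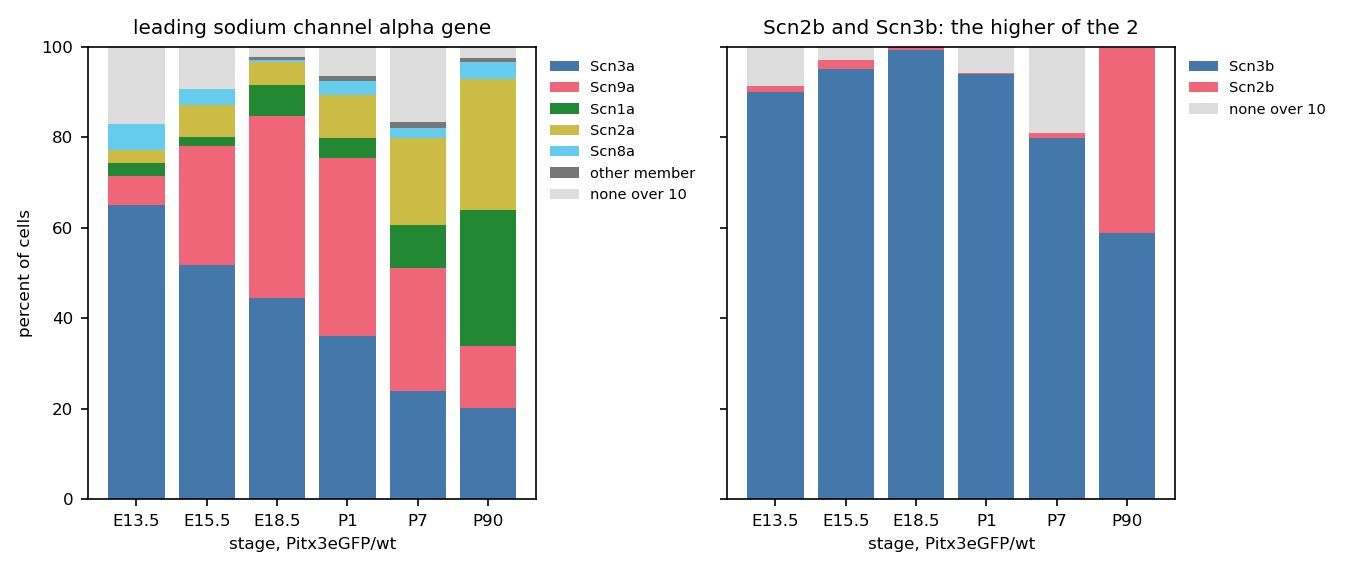
Percentage of heterozygous cells at each stage in which a sodium channel alpha gene (left), or Scn2b or Scn3b (right), had the highest RPKM of the genes set against each other, with cells in which none exceeded 10 as a separate part of the bar. Scn3a leads in 65% of cells at E13.5 and 20.2% at P90, and Scn3b in 90.0% and 58.9%.

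The Cav2 pores admit the calcium that triggers transmitter release. Cacna1b, the N-type pore, had means from 23.8 to 35.8 over the 6 stages and a share of 37.9% at E13.5 and 48.3% at P90, and it was not called. Cacna1e, the R-type pore, had means of 4.73, 10.9, 19.1, 17.9, 12.6 and 12.02. Its share was 17.1% at E13.5, 67.4% (60 to 74.2) at E18.5 and 47.7% at P90, so its highest mean was at E18.5 and its log2 ratio between the ends was 1.18. Cacna1a, the P/Q-type pore, had means from 3.10 to 6.59. RPKM of Cacna1a and Cacna1b depends on which transcripts were assigned reads, and the length implied by their values ran, from the 5th to the 95th percentile of cells, from 701 to 6850 bases for Cacna1a and from 734 to 8431 for Cacna1b. The same range was 921 to 7926 for Scn9a and 1320 to 7068 for Scn3a, but 2844 to 3536 for Scn2b. Other members had wide ranges too, among them Cacna1g (872 to 6917), Cacna1h (1315 to 7839), Hcn3 (631 to 2930) and Cacnb2 (569 to 3217). Shares of cells led by a gene compare RPKM between genes with such ranges.

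The T-type pores open at low voltage. Cacna1h had means of 22.1, 8.43, 16.9, 19.1, 11.9 and 6.99, with an RPKM from 0 to 358.5 at E13.5 (median 0.742) and from 0 to 91.6 at P90 (median 0.032). Its share was 36.4% and 22.1%, a difference of -14.3 points, with a log2 ratio of -1.53. Cacna1i ran from 0 to 26.5 at E13.5 and from 0 to 37.9 at P90, with means of 0.236 and 2.15. Its share was 0.714% and 8.41%, higher by 7.70 points (3.58 to 11.3). Cacna1g had means between 10.2 and 18.8 and was not called.

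L-type channels, to which pacemaking of dopamine neurons has often been linked, were low by this measure. Cacna1d, the L-type pore of that work, had means of 0.644, 2.26, 2.72, 2.998, 1.82 and 1.75, and its highest mean was at P1. Cacna1c, the other neuronal L-type pore, reached a highest mean of 2.13 at P7. Cacna1f and Cacna1s, the retinal and muscle pores, had highest stage means of 0.130 and 0.244.

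Of the alpha2delta subunits, which carry pores to the surface, Cacna2d3 (chromosome 14, 28904943-29721864) had the largest change with age. It ran from 0 to 523 at E13.5 (median 72.9, mean 94.9) and from 0 to 274.9 at P90 (median 0.965, mean 28.98). Its share was 73.6% and 40.8%, a difference of -32.8 points (-41.2 to -23.2), with a log2 ratio of -1.68, and its means between were 68.1, 52.5, 56.97 and 44.7. Cacna2d1 (chromosome 5, 15934691-16374511), the gabapentin receptor subunit, had means between 6.37 and 15.7, and Cacna2d2 between 1.95 and 4.65; neither was called, though the share of Cacna2d1 was 32.9% at E13.5 and 50.5% at P90, higher by 17.6 points (7.81 to 26.7). Cacna2d4 had a highest stage mean of 0.385.

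The calcium channel beta genes split evenly, 2 higher and 2 lower at P90. Cacnb3 (chromosome 15, 98630840-98644529) ran from 0 to 549.8 at E13.5 (median 80.4, mean 116.5) and from 0 to 358.4 at P90 (median 18.3, mean 26.6). Its means at the stages between were 103.1, 106.1, 126.8 and 97.1, so it stayed within this range up to P7, with a log2 ratio of -2.09 over the whole span and -1.83 from P7 to P90. Cacnb1 ran from 0 to 197.04 at E13.5 (median 21.7, mean 32.7) and from 0 to 125.5 at P90 (median 1.71, mean 7.82). Its share was 61.4% and 25.5%, a difference of -35.9 points (-44.7 to -26.2), and its log2 ratio was -1.93.

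Cacnb2 and Cacnb4 were on the opposite side. Cacnb2 had a mean of 0.970 at E13.5 (highest cell 54.9) and 6.83 at P90 (highest cell 139.9), and its share was 2.14% and 18.4%, higher by 16.2 points (10.7 to 21.1). Cacnb4 had means of 5.03 and 13.2 and shares of 15.7% and 45.5%. At E13.5 Cacnb3 was the leading beta gene in 70.7% (62.4 to 78.1) of cells and Cacnb1 in 18.6%. At P90 Cacnb3 led in 46.1% (40.6 to 51.7), Cacnb4 in 20.2%, and Cacnb1 and Cacnb2 in 9.97% each.

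Among the gamma genes, Cacng4 was lower at P90, with a mean of 19.3 at E13.5 (range 0 to 180.1, median 5.15) and 6.11 at P90 (range 0 to 70.9, median 0.364), and a log2 ratio of -1.51. Cacng3 was over 10 in 42.9% (34.5 to 51.5) of cells at E13.5 and 81.3% (76.6 to 85.4) at P90, while its means were 59.3 and 84.9, a log2 ratio of 0.51. Its medians were 0.596 and 70.9, and its highest cells reached 559 and 481. Cacng2, Cacng5 and Cacng8 were not called, and Cacng7, Cacng1 and Cacng6 had highest stage means of 0.983, 0.975 and 0.0168.

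Hcn3 had the highest level of Hcn2, Hcn3 and Hcn4, with means of 30.9, 21.8, 40.4, 32.04, 28.5 and 16.8 and no call. Hcn2 (chromosome 10, 79716634-79736108) ran from 0 to 14.3 at E13.5 (mean 0.145, 1 cell over 10) and from 0 to 78.7 at P90 (median 0.864, mean 4.85), with shares of 0.714% and 15.0%, higher by 14.2 points (9.49 to 18.6). Hcn4 went from a mean of 4.59 and a share of 13.6% to a mean of 1.31 and a share of 4.67%. At P90 Hcn3 had the highest RPKM of the 3, over 10, in 42.1% of cells and Hcn2 in 10.9%, and in 43.9% none of the 3 exceeded 10.

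Scn4a and Scn10a, which encode the pores of skeletal muscle and sensory neurons, had highest stage means of 0.0386 and 0.00138, and were over 10 in at most 0.379% and 0% of the cells of a stage. In all, 9 members stayed under a mean of 1 at every heterozygous stage, 14 peaked between 1 and 10, and 18 reached 10 or more. Of the 32 that reached 1, 15 had their highest mean at P90 and from 2 to 5 at each of the other stages. The median cell had 8, 8, 11, 10, 10 and 11 members over 10 from E13.5 to P90, and 8, 8, 11, 10, 9 and 11 after thinning to 100000 reads. With a threshold of 50 the medians were 4, 4, 4, 4, 3 and 3, so the order of E13.5 and P90 turned, and with a threshold of 1 they were 11, 11, 16, 15, 14 and 18.

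Neighbouring stages were compared in the same way. From E13.5 to E15.5, 2 of 28 members tested were higher (Scn9a and Cacna1e) and 3 lower (Cacna1h, Cacng5 and Hcn4), where 7.45% and 7.22% of all entries were. Thinned to 100000 reads, Scn2a (1.07), Scn2b (1.02) and Cacna1d (1.11) were called higher as well, and a pseudocount of 0.1 also gave more calls. From E15.5 to E18.5, 4 of 29 were higher (Scn1a, Cacng5, Hcn2 and Hcn4) and 0 lower, against 11.5% and 5.38% of all entries. Taken as the mean of log2 values, Scn1a alone of these 4 was called, and Scn2a, Cacna1e, Cacna1h, Cacng4 and Hcn3 were called higher too; between E13.5 and E15.5, Cacna1e, Cacng5 and Hcn4 were not, and Cacna2d3 (-1.05) and Cacnb1 (-1.01) were called lower. From E18.5 to P1 none of 30 was called, against 5.74% higher and 0.837% lower of all entries, and from P1 to P7 none of 30 was, against 8.02% and 3.24%. By the mean of log2 values, Scn3b (-1.44), Cacnb3 (-1.22) and Cacng3 (-1.07) were lower from P1 to P7. With oligodendrocyte-lineage cells kept 6 members were called, a count given without the share of all entries. From P7 to P90, 6 of 32 were higher (18.8%) and 5 lower (15.6%), against 9.88% and 20.2% of all entries. The 6 were Scn2b, Cacnb2, Cacnb4, Cacng3, Scn1a and Cacna1i, and the 5 were Cacnb3, Scn9a, Scn11a, Cacnb1 and Cacng4. Taken as the mean of log2 values, 7 were higher and 1 lower. Cacnb3 (-1.54) was the 1, and Scn9a (-0.76), Scn11a (-0.17), Cacnb1 (-0.70), Cacng4 (-0.53) and Cacna1i (0.58) were under 2-fold. For all these steps, the share of all entries called under the other settings is not given.

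Classes of cells were set by an RPKM over 150 for exactly 1 of Slc6a3, the dopamine transporter, Nxph4, a secreted neurexophilin, and Gad2, a GABA-synthesising enzyme. These classes are ranges of a gene's level, not cell types. At P90 there were 65 Slc6a3-high and 57 Gad2-high cells, 29 cells over 150 for none of the 3 and 26 for more than 1. The rest, the largest class, were Nxph4-high. The paper reports that its groups with high Slc6a3 are underrepresented among the sequenced cells when set against tissue sections. Values over all P90 cells therefore weigh the classes as they were sampled, not as they occur in tissue. At that stage 7, 28 and 12 cells lay between 100 and 200 for Slc6a3, Nxph4 and Gad2. Mean Th, the rate-limiting enzyme of dopamine synthesis, was 5612 in Slc6a3-high cells, 136.2 in Nxph4-high cells and 539 in Gad2-high cells. The median cell had 11, 11 and 12 members over 10 in Slc6a3-high, Nxph4-high and Gad2-high cells, and median reads per cell were 1812234, 1853924 and 1793725. Of 6 astrocyte markers, Aldoc was over 10 in 60%, 75.7% and 42.1% of the 3 classes, and Aqp4, Gja1 and Slc1a3 in no cell; their part in the class differences was not tested.

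Between E13.5 and P90 the mix of classes changed, from 25 Slc6a3-high, 38 Nxph4-high and 12 Gad2-high cells of 140. Comparing the 2 ages within a class was added after the data were seen. In Slc6a3-high cells 9 of 29 members tested were higher and 7 lower, against 24.9% and 24.8% of all entries. Of the 17 calls made over all cells 13 held there; Scn3b had a log2 ratio of -0.91 and Cacnb4 of 0.77, and Scn7a and Cacna1i did not reach the minimum mean. Scn9a (1.05), Cacna1d (1.26) and Cacng5 (1.06) were called higher in these cells but not over all cells. In Nxph4-high cells 12 of 31 members were higher and 6 lower, against 26.8% and 22% of all entries. There 15 of the 17 held, Scn3b had a log2 ratio of -0.93, and Hcn4 had means of 1.29 and 1.57, the opposite direction. Cacna1g (1.63), Cacng8 (1.14) and Scn8a (1.01) were called higher in these cells but not over all cells. Scn2b had means of 4.53 and 85.8 in Slc6a3-high cells and of 3.88 and 83.3 in Nxph4-high cells, and Scn1a of 1.13 and 8.84 in the former and 2.53 and 26.7 in the latter. Cacna2d3 had means of 136.4 and 34.1 in Slc6a3-high cells and of 60.3 and 8.50 in Nxph4-high cells. At P90 the shares of Scn3a, Scn2a, Scn9a and Scn1a were 70.8%, 66.2%, 47.7% and 33.8% in Slc6a3-high cells. In Nxph4-high cells at P90 they were 38.9%, 62.5%, 22.9% and 74.3%, so the order of these genes differed between the classes.

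At P90, 8 of 30 members tested differed at least 2-fold between Slc6a3-high and Nxph4-high cells: 4 were higher in Slc6a3-high cells and 4 lower, against 5.97% and 10.1% of all entries. The lower ones included 3 sodium channel pores, Scn1a, Scn8a and Scn7a. Scn1a ran from 0 to 74.7 in Slc6a3-high cells (median 5.07, mean 8.84) and from 0 to 124.2 in Nxph4-high cells (median 24.6, mean 26.7). The shares were 33.8% (22.6 to 46.6) and 74.3% (66.4 to 81.2), a difference of -40.5 points (-52.6 to -26.1), with a log2 ratio of -1.50. Scn8a had means of 3.10 and 8.27 and shares of 7.69% and 31.9%. Scn7a was over 10 in 0 of 65 Slc6a3-high cells, which allows up to 4.62%, and in 8.33% of Nxph4-high cells. Cacna1i had means of 0.294 and 2.90, a log2 ratio of -1.59. Taken as the mean of log2 values, Scn7a (-0.62) and Cacna1i (-0.83) were under 2-fold.

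The 4 genes higher in Slc6a3-high cells were Cacna1e, Cacna2d3, Scn9a and Cacng5. Cacna1e ran from a median of 4.55 and a mean of 7.77 in Nxph4-high cells to a median of 16.5 and a mean of 20.03 in Slc6a3-high cells. Its shares were 31.2% and 75.4%, higher by 44.1 points (29.98 to 55.4), with a log2 ratio of 1.26. Cacna2d3 had means of 8.50 and 34.1 and shares of 19.4% and 46.2%, higher by 26.7 points (13.1 to 39.96). Scn9a had means of 7.66 and 16.5 and Cacng5 of 4.71 and 10.5, each with a log2 ratio of 1.01, close to the 2-fold limit. Without title set 4 the ratio of Cacng5 was 0.51, and without sets 1 and 5 in turn that of Scn9a was 0.98 and 0.87. Cacng5 was also under 2-fold with summed counts (0.94), the mean of log2 values (0.84) and thinning (0.96), and with oligodendrocyte-lineage cells kept the ratios were 0.95 for Scn9a and 0.91 for Cacng5. Within each of the 4 P90 title sets all 8 ratios kept their direction, for example from -2.00 to -1.28 for Scn1a and from 1.03 to 1.33 for Cacna1e on the log2 scale.

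Against Gad2-high cells, Slc6a3-high cells had 2 of 31 members higher and 6 lower, where 7.55% and 10.3% of all entries were. Cacng5 was higher, with means of 1.99 in Gad2-high and 10.5 in Slc6a3-high cells. Cacnb3 was higher too, with means of 13.6 and 39.1, medians of 0.840 and 28.7, and shares of 38.6% and 70.8%, a difference of 32.2 points (14.5 to 47.2). Scn1a, Scn8a and Cacna1i were lower in Slc6a3-high cells here as well, in a comparison that shares those cells with the one before. In Gad2-high cells Scn1a had a mean of 23.6 and a share of 59.6%, and Scn8a of 7.52 and 36.8%. The log2 ratio of Scn8a was -1.05, and -0.91 without title set 2. Cacna1a, Cacng7 and Cacna2d3 completed the 6. Taken as the mean of log2 values, Cacna1i (-0.68), Cacng7 (-0.32) and Cacna1a (-0.17) were under 2-fold. The Cacna1a difference rested on few cells, since the shares were 15.4% and 19.3%, their difference of -3.91 points had an interval of -17.7 to 9.52, and 1 Gad2-high cell reached 447. With summed counts its log2 ratio was -0.46. Over the title sets it ran from -2.78 to 1.14, so the direction differed between sets.

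Cacna2d3 had the largest class difference at P90 of the 41 genes. It ran from 0 to 274.9 in Gad2-high cells (median 73.6, mean 77.6), from 0 to 96.6 in Nxph4-high cells (median 0.111, mean 8.50) and from 0 to 169.4 in Slc6a3-high cells (median 5.0, mean 34.1). Shares were 89.5%, 19.4% and 46.2%. Nxph4-high against Gad2-high cells differed by -70.03 points (-77.98 to -57.2), with a log2 ratio of -3.05 and of -3.40 to -2.24 over the title sets. Cacna2d1 went the other way, with means of 20.6 in Nxph4-high, 6.96 in Gad2-high and 11.1 in Slc6a3-high cells. Its share of 69.4% in Nxph4-high cells was higher than the 26.3% in Gad2-high cells by 43.1 points (28.2 to 55.03). Cacna2d1 led the alpha2delta genes in 59.03% (50.5 to 67.1) of Nxph4-high cells and in 1.75% of Gad2-high cells, and Cacna2d3 led in 15.3% and 85.96% (74.2 to 93.7).

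Between Nxph4-high and Gad2-high cells these were 2 of 3 calls among 31 members, 1 higher and 2 lower in Nxph4-high cells, against 6.74% and 5.08% of all entries. The other call was Cacna1a, with means of 4.59 and 15.5 and the few high cells described above. Members not called between classes included Scn2b, with means of 85.8, 83.3 and 119.2 in Slc6a3-high, Nxph4-high and Gad2-high cells, and Cacna1d, with 1.64, 1.84 and 1.40. Hcn2 had means of 3.88, 5.64 and 4.91 and Cacna1b of 36.1, 24.97 and 24.01. Cacnb3 led the calcium channel beta genes in 60%, 47.2% and 24.6% of Slc6a3-high, Nxph4-high and Gad2-high cells. Of Scn2b, Scn3b and Scn4b, Scn3b had the highest RPKM in 81.5% (69.97 to 90.1) of Slc6a3-high cells, 47.9% (39.5 to 56.4) of Nxph4-high cells and 42.1% (29.1 to 55.9) of Gad2-high cells, and Scn2b in 16.9%, 52.1% and 57.9%.

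**Figure D4:**
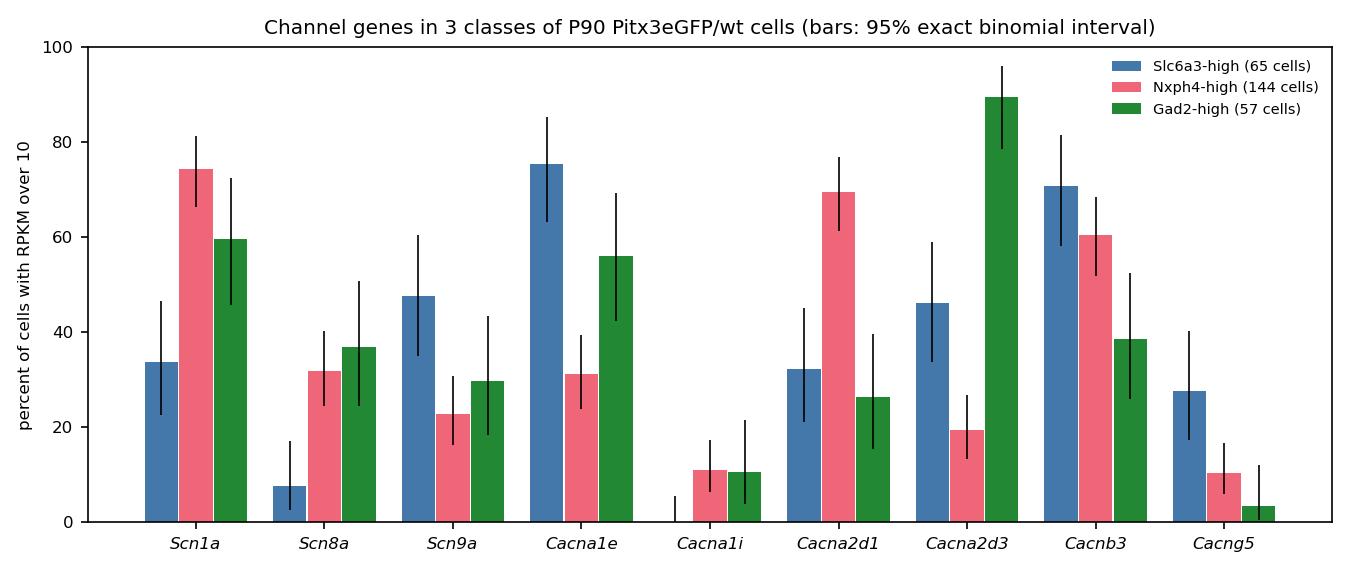
Share of P90 cells with an RPKM over 10 for 9 channel genes in Slc6a3-high, Nxph4-high and Gad2-high cells, with exact 95% binomial intervals for counting error. For Cacna2d3 the shares are 46.2%, 19.4% and 89.5%, and for Scn1a 33.8%, 74.3% and 59.6%.

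Some of these class differences were present at P1 and others were not. There were 36 Nxph4-high and 29 Gad2-high cells at P1, and more Slc6a3-high ones. Scn1a had means of 6.28 in Slc6a3-high and 17.3 in Nxph4-high cells, and Cacna1i of 0.301 and 3.13; both were called lower, as at P90. Cacna2d1 was over 10 in 20.4%, 55.6% and 24.1% of Slc6a3-high, Nxph4-high and Gad2-high cells at P1, and in 17.6%, 33.3% and 8.33% at E18.5. Cacna2d3 had means of 54.2, 53.9 and 97.3 at P1, so Slc6a3-high and Nxph4-high cells had similar means then. Scn1a had means of 9.16, 8.43 and 8.39 in the 3 classes at E18.5.

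Calls at P1 numbered 1 higher and 7 lower of 33 members in Slc6a3-high against Nxph4-high cells, where 11.4% and 10.6% of all entries were called. Cacna1h, the low-voltage pore, was the 1 that was higher, with means of 7.19 in Nxph4-high and 21.97 in Slc6a3-high cells, and Cacna1g was lower, with 26.7 and 11.5. Both calls were lost with summed counts and with the mean of log2 values. The P1 classes pool cells with and without spike-in. Cacna1h had means of 7.31 in 51 Slc6a3-high and 6.42 in 8 Nxph4-high cells with spike-in, and of 36.4 in 52 and 7.41 in 28 without it, so the difference was seen in the cells without spike-in. Cacna1g was lower in Slc6a3-high cells in both sets, with 9.65 and 19.9 with spike-in and 13.3 and 28.6 without. Slc6a3-high against Gad2-high cells gave 1 higher and 2 lower of 30 (12.8% and 9.01% of all entries), and Nxph4-high against Gad2-high cells 7 higher and 1 lower of 33 (14.8% and 12.1%). In P1 cells without spike-in alone these 3 pairs gave 13, 7 and 14 calls, and with a mean of at least 5 they gave 5, 1 and 4. The share of all entries called under these settings is not given, so a change particular to the channel genes cannot be read from these counts. Cacng3, an AMPA receptor partner, was lower in both other classes than in Gad2-high cells, whose mean was 156.95 against 51.3 in Slc6a3-high and 62.3 in Nxph4-high cells.

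At E18.5 the classes held 74, 15 and 24 cells. Slc6a3-high against Nxph4-high cells gave 1 higher and 4 lower of 29 (16.9% and 12% of all entries), Slc6a3-high against Gad2-high cells 0 higher and 8 lower of 31 (12.9% and 9.76%), and Nxph4-high against Gad2-high cells 3 higher and 7 lower of 31 (15.2% and 16.8%). With the mean of log2 values, and with a stricter minimum mean, both pairs with Slc6a3-high cells gave fewer calls, as counted in the closing section. Gad2-high cells again had the most Cacng3, with a mean of 173.2 against 48.5 and 61.05. They also had the most Cacna2d3, with 101.8 against 48.1 in Slc6a3-high and 39 in Nxph4-high cells. At E13.5, E15.5 and P7 the Gad2-high class held 12, 10 and 7 cells, under the minimum of 15. Slc6a3-high and Nxph4-high cells reached it at E13.5 (25 and 38) and E15.5 (38 and 22), but calls between them were not made. At E13.5 Cacna2d3 had means of 136.4 in Slc6a3-high and 60.3 in Nxph4-high cells, and Cacna2d1 of 5.44 and 17.5. Differences between these classes before E18.5 are therefore not described here.

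The 2 genotypes were compared at E13.5 and P1. At E13.5 the 2 genotypes also differ in spike-in and in the title sets, and these cannot be told apart. Median reads per cell were 2357898 in heterozygous and 749734 in homozygous cells at this stage. None of 26 members tested was called, where 4.31% of all entries were higher and 4.77% lower in Pitx3eGFP/eGFP cells. The median log2 ratio was -0.03 over the members and over all entries. Without title set 4 of the homozygous cells, 2 members were called, a count given without the share of all entries. Scn3b had means of 262.2 in heterozygous and 231.3 in homozygous cells and shares of 90.0% and 94.4%. Cacna2d3 was close to the limit, with means of 94.9 and 48.4 and a log2 ratio of -0.96. It was past 2-fold with summed counts (-1.27) and with the mean of log2 values (-1.51), and under 2-fold with thinning to 100000 reads (-0.92). Its shares were 73.6% and 56.2%, a difference of -17.4 points (-27.3 to -6.81), and it led the alpha2delta genes in 71.4% of heterozygous and 54.5% of homozygous cells. At E13.5, 25 heterozygous cells and 1 homozygous cell were Slc6a3-high, and Cacna2d3 had means of 136.4 in the heterozygous Slc6a3-high cells, 60.3 in Nxph4-high cells and 92.4 in cells of none of the 3 classes; their part in this difference was not tested.

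At P1 only cells with the spike-in label were compared, 93 heterozygous cells and all homozygous ones. Of 30 members, 4 were higher in the homozygous cells and 0 were lower, where 9.49% of all entries were higher and 2.41% lower. Each of 6 microglia markers was over 10 in 3.8 to 6.33% of homozygous and 0.758 to 1.52% of all heterozygous P1 cells, and their part in these calls was not tested. Cacna1g ran up to 155.05 in heterozygous cells (mean 10.6) and up to 624 in homozygous cells (mean 29.6), with shares of 18.3% and 34.2%, higher by 15.9 points (4.49 to 26). Cacna1h had means of 5.68 and 18.4 and highest cells of 45.7 and 531. Its shares were 21.5% and 30.4%, and the interval of the difference (-2.62 to 19.3) includes 0. Cacng5, a gamma subunit, had means of 1.33 and 5.02 and shares of 3.23% and 12.03%, higher by 8.80 points (1.62 to 15.2). Cacna1a had means of 2.84 and 7.32, with an interval of -1.11 to 15.6 points that includes 0.

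These 4 differences depended on which heterozygous cells they were set against. In the heterozygous P1 cells without spike-in, Cacna1h had a mean of 26.4, Cacna1g of 18.3, Cacng5 of 3.05 and Cacna1a of 6.30, and with all P1 cells none of the 4 was called. With summed counts only Cacng5 was. Taken as the mean of log2 values, only Cacna1g (1.02) of the 4 was, with Cacna1h at 0.69, Cacna1a at 0.52 and Cacng5 at 0.48. Then 2 genes were higher, Cacna1g and Cacng3, and 2 were lower, Cacna2d3 (-1.28) and Cacnb3 (-1.05). The share of all entries called under these settings is not given. At E13.5 the log2 ratios were -0.47 for Cacna1h, -0.38 for Cacna1g, -0.17 for Cacna1a and 0.15 for Cacng5.

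The make-up of the genotypes differed as well, since 51 of the 93 heterozygous and 15 of the homozygous cells at P1 were Slc6a3-high. Mean Slc6a3 was 670.2 and 46.2 and mean Th 1637 and 712. Fewer cells of a class and less RNA per cell cannot be told apart from a group mean. Within Slc6a3-high cells Cacng5 was over 10 in 0 of 51 heterozygous cells and in 6 of 15 homozygous cells (40%), with means of 0.191 and 22.3. Cacna1g had means of 9.65 and 49.1 there and Cacna1h of 7.31 and 33.5. These heterozygous cells were those with spike-in. In heterozygous Slc6a3-high cells without spike-in, the Cacna1h mean given above was higher than the homozygous mean, and that of Cacna1g was lower. Cacna2d3, which was not called at P1, had means of 71.6 in heterozygous and 40.3 in homozygous cells, a log2 ratio of -0.81, and of -1.28 from the mean of log2 values. Its shares were 70.97% and 53.8%, a difference of -17.2 points (-28.5 to -4.69). This too depended on the heterozygous cells used. Those without spike-in had a mean of 49.02 and a share of 52.6%, so against them the share was not lower in homozygous cells. Within Slc6a3-high cells at P1 its means were 56.6 and 48.5, with shares of 70.6% of 51 cells and 60% of 15.

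**Figure D5:**
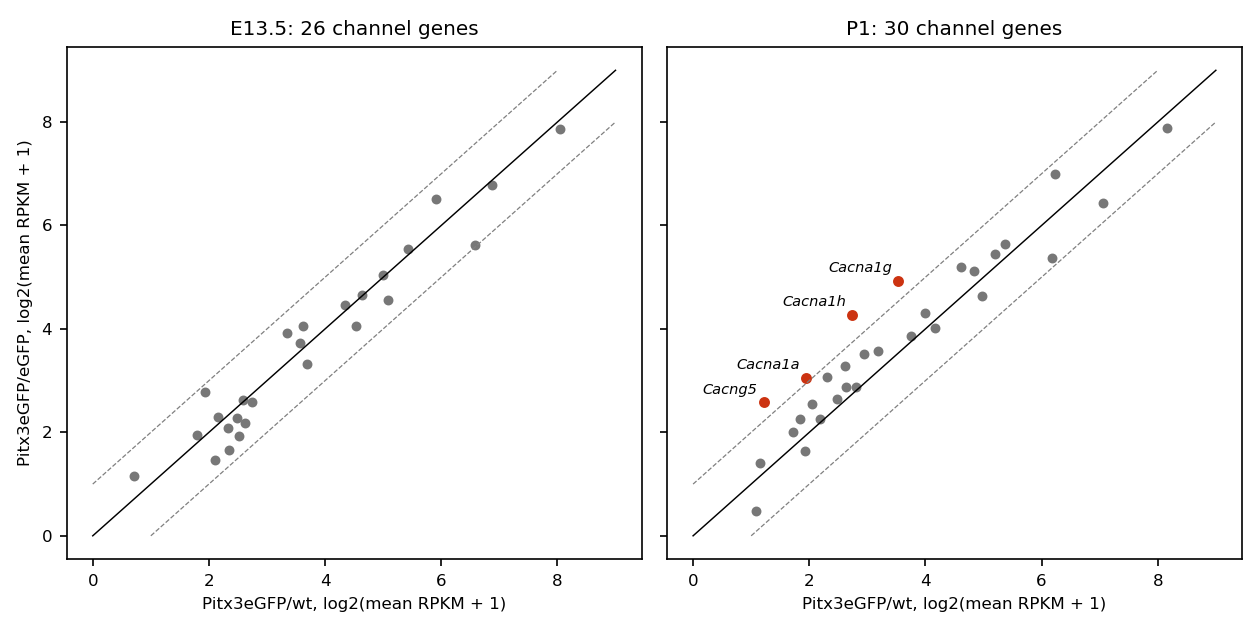
Mean RPKM on a log2 scale, with 1 added, of each tested channel gene in Pitx3eGFP/wt cells (x axis) against Pitx3eGFP/eGFP cells (y axis) at E13.5 (26 genes) and in spike-in cells at P1 (30 genes); dashed lines mark 2-fold. No gene lies past the lines at E13.5, and Cacna1g, Cacna1h, Cacna1a and Cacng5 lie above the upper line at P1.

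A list of 20 genes, most of them for proteins that work with these channels, gave a further description. It also holds the separate leak channel gene Nalcn, the genes of its complex, and Kcnip4, named for potassium channels. Counts over the list are thus not counts of partners of the members alone. At P90 against E13.5, 7 of the 20 were higher and 1 lower, where 20.9% and 19.9% of all entries were. Fgf12, a factor that binds the tail of sodium channel pores, had means of 2.35 and 34.5, and Pex5l, the HCN trafficking partner TRIP8b, of 0.363 and 7.97. Nalcn, the sodium leak channel, had 3.94 and 22.1, and its large partner Unc80 2.84 and 20.1. Unc79 and Fam155a, of the same complex, were not called, with means of 26.2 and 12.9 and of 29.4 and 22.8. The remaining genes that were higher were Stac2, Kcnip4 and Cabp1. Ank3, the ankyrin that anchors sodium channels at the axon initial segment, was lower, with means of 104.02 and 31.4.

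Between P90 classes, 3 of the 20 were higher in Slc6a3-high than in Nxph4-high cells and 2 lower, where 5.97% and 10.1% of all entries were. Fgf13 and Kcnip4 were higher in Slc6a3-high than in Nxph4-high cells, with means of 83 in Nxph4-high and 297.6 in Slc6a3-high cells for Fgf13 and of 45.6 and 238.5 for Kcnip4. Fgf14, another sodium channel binding factor, was lower, with 23.7 and 7.65. Rims1 was higher, with 8.39 and 19.2, and Stac2 lower, with 10.2 and 0.916. Pex5l had a mean of 0.0231 in Gad2-high cells against 12.8 and 10.3 in the other two, while Hcn2 had a mean of 4.91 there.

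Cells left out as oligodendrocyte-lineage were checked for the members. At P7 the 95 such cells had Scn3b over 10 in 29.5%, Cacnb3 in 25.3% and Scn2b in 8.42%, all below the kept cells. Cacng5 was over 10 in 10.5% of them and in 7.14% of the kept cells. Cacng4 had a mean of 17.1 in the left-out P7 cells and 14.04 in the kept ones, with shares of 28.4% and 32.1%. Cacnb1 had a mean of 25.5 in the left-out P1 cells and of 14.9 and 22.9 in the 2 title sets of kept ones. The 51 P1 cells left out had Scn3b over 10 in 52.9%, against 94.3% of the kept P1 cells, but Scn8a in 25.5% against 17.4% and Cacna1c in 11.8% against 4.55%. The kept P7 cells had a median summed RPKM of 44.6 over the 12 oligodendrocyte-lineage markers, against 21.01 at E18.5, 19.2 at P1 and from 2.08 to 4.69 at the other stages, and a median of 19.96 over the 6 astrocyte markers, against 0 at E13.5 and 0.742 at P1. Each astrocyte marker was over 10 in 13.1 to 36.9% of these P7 cells, each of 6 microglia markers in 2.38 to 4.76%, each of 6 endothelial or pericyte markers in 3.57 to 5.95% and each of 5 cycling markers in 4.76 to 11.9%, and the part of these lists in the P7 values was not tested. At P90 the summed astrocyte markers had a median of 127.7, of which Aldoc, with a mean of 317.3, was the only one over 10 in most cells, and Aqp4, Gja1 and Slc1a3 were over 10 in no cell.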

How the data were processed

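Single cells sorted from Pitx3eGFP mice were sequenced with Smart-seq2. The authors aligned reads with STAR to mm10, per the labels' processing notes, and deposited, for each cell, the read count and the RPKM of each Ensembl gene entry; no column lacked a sample (0 columns). The deposited RPKM divides reads by a transcript length that can differ between cells, and the deposited counts were not normalized. Cells needed over 100000 reads, spread over at least 15% of the 31526 entries that any cell detected (3.4% at P90), and 185 cells with at least 3 of 12 oligodendrocyte-lineage markers over an RPKM of 10 were then left out. Group means of RPKM, medians, shares over 10 and summed counts were computed in Python 3.11.15 with pandas 2.3.3, numpy 2.4.6, scipy 1.17.1, scikit-learn 1.9.0 and matplotlib 3.10.9. A difference was called at 2-fold with a pseudocount of 1 for entries whose mean reached 1 in at least 1 of the groups compared, over all such entries. The kept cells numbered 140, 141, 178, 264, 84 and 321 from E13.5 to P90 in Pitx3eGFP/wt and 178 and 158 at E13.5 and P1 in Pitx3eGFP/eGFP; P90 held 65 Slc6a3-high, 144 Nxph4-high and 57 Gad2-high cells, and 93 and 171 heterozygous P1 cells were with and without spike-in. Of the 44 genes that fit the rule, 3 are not reported here. No animal is labelled, so no test was run. The intervals rest on numbers of cells and leave out read depth, which was over 100000 reads in each kept cell. Genes were named by a rule: the highest mean of each subfamily, the 8 largest calls per direction between E13.5 and P90, the 6 largest per direction between each pair of P90 classes, and members called alike in both genotype comparisons; others were named where a sentence needed them, after their values were seen. The members, the partner list and the rule were chosen with earlier results of these data known. Alternatives were summed counts, the mean of log2 values, other pseudocounts, filters, class limits and cell filters, thinning to 100000 reads, and leaving out title sets. The call and the intervals were also tried on simulated data, whose settings and outcome are not given here. Nothing is concluded from that trial about ratios close to the 2-fold limit, low means or small classes. Coordinates are GRCm38, and promoters are RefSeq sequences of GRCm38.p6.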

Additional observations from a re-analysis of the deposited data

How the results depend on the processing

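The counts of channel genes called 2-fold apart were set against each alternative. P90 against E13.5 gave 9 higher and 8 lower in the report. The share of all entries called under each alternative is not given, so these counts describe the channel genes alone. With summed counts the calls numbered 2 from P1 to P7, 1 between genotypes at E13.5 and 1 at P1, and 5 in Slc6a3-high against Gad2-high cells at P1. With the mean of log2 values there were 5 lower from E13.5 to P90, 3 calls from P1 to P7, 1 between genotypes at E13.5, 4 in Slc6a3-high against Nxph4-high cells at P1 and 2 at E18.5, and 4 in Slc6a3-high against Gad2-high cells at E18.5. With a pseudocount of 0.1 they numbered 10 from E13.5 to E15.5, 1 from E18.5 to P1, 3 from P1 to P7, 1 between genotypes at E13.5 and 6 in Nxph4-high against Gad2-high cells at P90. With a mean RPKM of at least 5 they numbered 3 from E13.5 to E15.5 and 1 from E15.5 to E18.5; in Slc6a3-high against Nxph4-high cells 5 at P1 and 2 at E18.5, in Slc6a3-high against Gad2-high cells 1 and 5, and in Nxph4-high against Gad2-high cells 4 at P1. Thinned to 100000 reads, 8 were called from E13.5 to E15.5, 5 in Slc6a3-high against Gad2-high cells at P1 and 3 in Slc6a3-high against Nxph4-high cells at E18.5. From P1 to P7 there were 6 calls with no oligodendrocyte-lineage cells left out and 1 with oligodendrocyte-lineage clusters left out; with P1 cells of 1 spike-in label there were 2 from E18.5 to P1 and 1 from P1 to P7. Leaving out 1 title set at a time gave 3 to 6 calls in Nxph4-high against Gad2-high cells at P90 (6 without set 1 and 6 without set 4) and 0 to 2 between genotypes at E13.5 (2 without set 4 of the homozygous cells). Between genotypes at P1 there was 1 call with all P1 cells, 11 within Slc6a3-high cells and 8 within cells with none of the 3 genes. With a class limit of 50 there were 5 calls in Slc6a3-high against Gad2-high cells at P1 and 3 in Slc6a3-high against Nxph4-high cells at E18.5. With a class limit of 300 there were 7 at P1 and 4 at E18.5 in Slc6a3-high against Gad2-high cells; with classes that include cells over 150 in more than 1 gene, that pair had 3 at P90 and 4 at E18.5, and Slc6a3-high against Nxph4-high cells had 3 at E18.5. With P1 cells without spike-in alone, chosen after seeing the data, there were 13 calls in Slc6a3-high against Nxph4-high cells, 7 in Slc6a3-high against Gad2-high cells and 14 in Nxph4-high against Gad2-high cells; 2 of the classes had under 15 cells with spike-in. The cause of these shifts was not tested, beyond that fewer genes are tested under the stricter mean and fewer cells within a class. From P1 to P7 the 3 calls with the mean of log2 values were lower (Scn3b, Cacnb3 and Cacng3). Of 35 named log2 ratios, 33 stayed at least 2-fold in the same direction under thinning (not Cacng7 at -0.68 and Cacng5 at 0.96), 31 with summed counts (not Scn3a at -0.85, Cacna1a at -0.46 and -0.62, and Cacng5 at 0.94), 33 under each oligodendrocyte filter (not Scn9a and Cacng5) and 23 with the mean of log2 values. The 12 under 2-fold with the mean of log2 values were, from E13.5 to P90, Scn7a (0.62), Cacna1i (0.70), Cacna1h (-0.92), Hcn4 (-0.33) and Scn3b (-0.89), and between P90 classes Cacna1i (-0.68 and -0.83), Cacna1a (-0.17 and -0.22), Cacng7 (-0.32), Cacng5 (0.84) and Scn7a (-0.62). Under 2-fold without 1 P90 title set were Cacng7 in Slc6a3-high against Gad2-high cells (-0.86 without set 1, -0.84 without set 2), Scn8a there (-0.91 without set 2), Cacna1a there and in Nxph4-high against Gad2-high cells (-0.44 and -0.93 without set 5), and Scn9a (0.98 without set 1, 0.87 without set 5) and Cacng5 (0.51 without set 4) in Slc6a3-high against Nxph4-high cells. With a threshold of 1 in place of 10, 42 of 56 named shares left their intervals, and with 50, 51 did. With a class limit of 300 at E18.5, pairs with Nxph4-high cells had under 15 cells and gave no value. No paired analysis was possible because no result comes from a test and the labels name no animal; for the P90 classes, which share the numbered title sets, the report gives the ratios within sets. Depth limits statements on genes with a mean under 1.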
